A study of Mus musculus with 13 samples.

Results

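The accessible chromatin around 7 genes that control the formation of skeletal muscle was examined in the embryonic mouse forelimb and forebrain. The genes were Myod1, Myf5, Myf6, Myog, Pax3, Pax7 and Lbx1. Accessible regions, that is, peaks of transposase insertion in ATAC-seq, were taken when their strongest summit lay within 100 kb of the body of one of the 7 genes (GENCODE M21, mm10). Over all 13 libraries, 1075 of 1356806 distinct regions met this rule, with 52 to 110 in a single library.

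Embryos were profiled at E12.5 on the B6CBAF1 background, in the distal part of the forelimb (DFL), its proximal part (PFL) and the forebrain (FB). Controls were wild type (wt), and mutants were homozygous for the allele 542 (II1TDOM 542), a single line in which a copy of the limb enhancer II1, joined to an HBB promoter and LacZ, was recombined into the T-DOM regulatory domain on chromosome 2. None of the 7 genes lies on chromosome 2. Each of the 6 groups had 2 replicates, each made from pooled tissue, and 1 earlier wt DFL library, processed anew by the authors, was used only where it is named.

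Pax3 and Lbx1 encode transcription factors of the muscle progenitors that migrate from the somites into the limb, and Pax7, a close relative of Pax3, is known for its role in muscle stem cells. Myf5 and Myod1 commit such progenitors to the muscle fate, and Myf6 and Myog, of the same basic helix-loop-helix family, act in commitment and in differentiation to muscle fibres. Members of that family bind short DNA sequences called E-boxes. Pax3, Pax7 and Lbx1 also act in the developing nervous system.

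Depth, estimated from the deposited values, ranged from 37.5 to 70.7 M tags in the 12 libraries. Because libraries differed in depth and in the number of regions, the 80000 strongest regions of each library were compared. Regions that overlapped between libraries were merged into 183852 consensus regions, of which 160 lay around the 7 genes. Each region was given a rank score in each library, from 100 for the strongest region to 0 for one outside the 80000. The tissue labels were checked against marker promoters. The Hoxa13 promoter, a distal limb marker, had a mean score of 83.8 in DFL, 50.5 in PFL and 0 in FB. Of the limb mesenchyme and proximal limb markers, the Hand2 and Tbx3 promoters scored higher in every limb library than in every FB library. The Prrx1 and Meis1 promoters went against their labels and scored lower in every limb library. Of the forebrain markers, the Emx2 promoter (mean 81.6 in FB, 57.0 in DFL and 65.4 in PFL) and the Dlx2 promoter (76.7, 42.5 and 23.3) scored higher in every FB library than in every limb library. The Neurod6 promoter was at 0 in limb and in the 542 FB libraries and scored 42.8 and 37.2 in wt FB, and the Tbr1 promoter went against its label, with 16.9 in FB, 48.1 in DFL and 29.4 in PFL. In bulk tissue, fewer cells of a type and less accessibility per cell cannot be told apart.

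The 5 regions shown here for their sequence carry the main contrast between proximal and distal limb. The first 3 lie upstream of Myod1, the next lies upstream of Lbx1 within an intron of the non-coding gene Gm28578, and the last ends at the start of Myog. The first 4 are 200 bases centred on the strongest summit from the GRCm38.p6 genome, and the Myog sequence is 235 bases of the RefSeq promoter (GRCm38.p6). All are written 5′ to 3′ on the plus strand, and capitals mark E-boxes (CANNTG).
Myod1 at -59347 bp, chr7:46317027-46317226: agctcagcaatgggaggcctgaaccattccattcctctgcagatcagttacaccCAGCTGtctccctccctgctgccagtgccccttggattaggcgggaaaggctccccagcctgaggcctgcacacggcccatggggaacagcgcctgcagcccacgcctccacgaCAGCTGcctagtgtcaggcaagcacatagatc
Myod1 at -34759 bp, chr7:46341615-46341814: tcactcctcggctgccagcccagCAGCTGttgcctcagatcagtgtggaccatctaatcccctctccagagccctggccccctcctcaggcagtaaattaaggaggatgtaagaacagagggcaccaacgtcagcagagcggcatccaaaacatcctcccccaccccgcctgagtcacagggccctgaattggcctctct
Myod1 at -23110 bp, chr7:46353264-46353463: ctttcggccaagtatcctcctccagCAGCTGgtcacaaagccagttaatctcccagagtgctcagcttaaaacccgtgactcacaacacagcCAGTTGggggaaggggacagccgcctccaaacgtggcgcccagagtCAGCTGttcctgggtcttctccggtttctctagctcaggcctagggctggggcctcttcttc
Lbx1 at -68868 bp, chr19:45304580-45304779: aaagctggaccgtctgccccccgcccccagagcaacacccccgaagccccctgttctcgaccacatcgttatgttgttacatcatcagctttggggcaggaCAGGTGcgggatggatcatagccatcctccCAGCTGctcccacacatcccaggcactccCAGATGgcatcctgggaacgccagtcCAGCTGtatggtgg
Myog promoter, chr1:134289754-134289988: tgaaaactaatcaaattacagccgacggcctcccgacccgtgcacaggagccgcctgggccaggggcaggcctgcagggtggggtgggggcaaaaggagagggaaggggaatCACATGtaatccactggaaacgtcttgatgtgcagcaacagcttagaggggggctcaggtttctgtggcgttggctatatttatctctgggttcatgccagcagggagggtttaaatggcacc

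Proximal and distal forelimb were compared first. Around the 7 genes, 5 of 160 consensus regions (3.12%) were found in all 4 PFL libraries and in no DFL library, beside 1.89% of all consensus regions. The reverse pattern, in all DFL libraries and in no PFL library, was found in 0 regions, beside 2.21% of all consensus regions. Of the 5 PFL regions, 3 lay upstream of Myod1, 1 downstream of Myog and 1 upstream of Lbx1. The count of 5 was 8 without wt PFL replicate 2, 11 when all deposited regions were used, 3 with a window of 50 kb and 9 with a window of 200 kb.

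**Figure D1:**
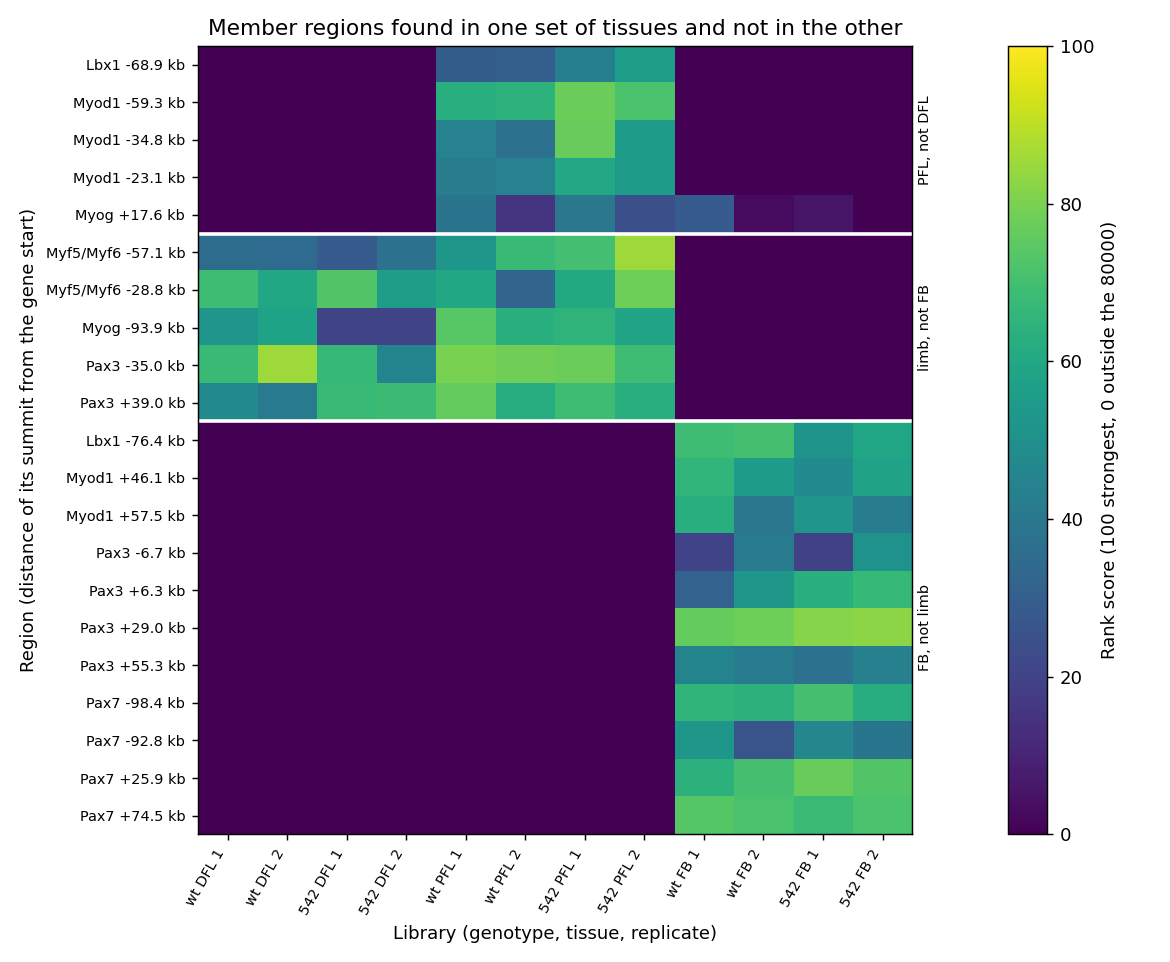
Rank score (colour, 0 to 100) of each region around the 7 genes that was found in every library of one set of tissues and in none of the other, in 12 libraries (columns, by genotype, tissue and replicate). The 5 PFL regions, 5 limb regions and 11 FB regions are separated by white lines. In the tissues that define a block, the presence or absence of scores in both genotypes follows from this choice of regions.

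Rank scores of the 160 regions were compared next. In 15 regions (9.38%) every PFL library scored above every DFL library, beside 5.13% of all consensus regions, and in 2 (1.25%) every DFL library scored above every PFL library, beside 5.59%. By an exact permutation test (two-sided, 70 assignments of 8 libraries), 17 of 160 regions (10.6%) had an unadjusted p under 0.05. This was close to the 10.7% of all consensus regions. Only scores that do not overlap give such a p here, so these are the same regions and the count is no further result. Of these, 0 passed the Benjamini-Hochberg adjustment, as p cannot fall below 0.0286 and the lowest adjusted p over all regions was 0.266. With limma on the same scores, 16 regions were higher in PFL and 3 lower at an adjusted p under 0.05, beside 4.78% and 5.14% of all consensus regions.

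**Figure D2:**
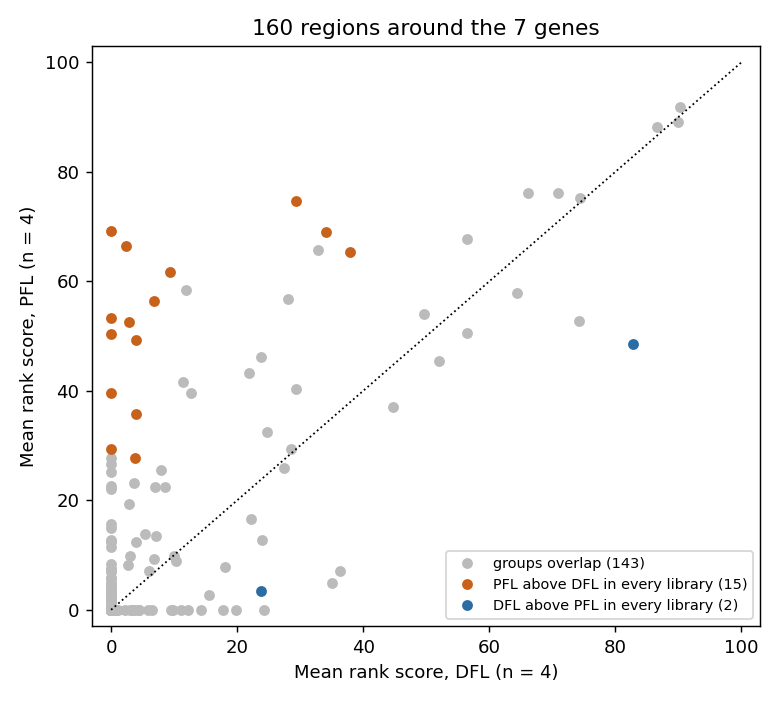
Mean rank score of each of the 160 regions in DFL (horizontal) and PFL (vertical), 4 libraries each. The 15 regions whose PFL libraries all score above the DFL libraries lie above the dotted line of equal score, and the 2 regions of the opposite kind lie below it.

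Myod1, which commits cells to the muscle fate, had the most PFL regions. At -59347 bp from its start (chr7:46316704-46317530, intergenic), the fold over local background was 6.94 and 6.98 in the wt PFL libraries and 9.54 and 7.65 in the 542 PFL libraries, with 38 to 53 tags under the summit. In DFL, weak regions were deposited there in wt replicate 1 (fold 2.78) and 542 replicate 1 (fold 3.32), both outside the 80000 strongest, as was the region of the earlier wt DFL library (fold 2.79), and none was deposited in FB. All 4 PFL folds therefore lay above the DFL folds.

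The region at -34759 bp (chr7:46341413-46341921, intergenic) had folds of 5.47 and 4.82 in wt PFL and 9.73 and 5.59 in 542 PFL. The region at -23110 bp (chr7:46352893-46353735, intergenic), named here after its values were seen, had folds of 5.31 and 5.28 in wt PFL and 5.96 and 5.59 in 542 PFL. Neither had a deposited region in any DFL or FB library, nor in the earlier wt DFL library. The mean rank scores in PFL were 69.1, 53.2 and 50.4 for the 3 regions from the farthest to the nearest, against 0 in DFL (p = 0.0286 each, the smallest the exact test allows, which follows from their choice as regions found in PFL and not in DFL).

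The start of Myod1 was open in all tissues. The region there (chr7:46376203-46377402, summit in an exon at 703 bp) was found in all 12 libraries, with mean scores of 44.7 ± 8.94 (SD, n = 4) in DFL, 37.0 ± 15.5 in PFL and 38.7 ± 18.2 in FB. The tissues overlapped, and the difference between PFL and DFL was within the spread (exact permutation p = 0.486).

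**Figure D3:**
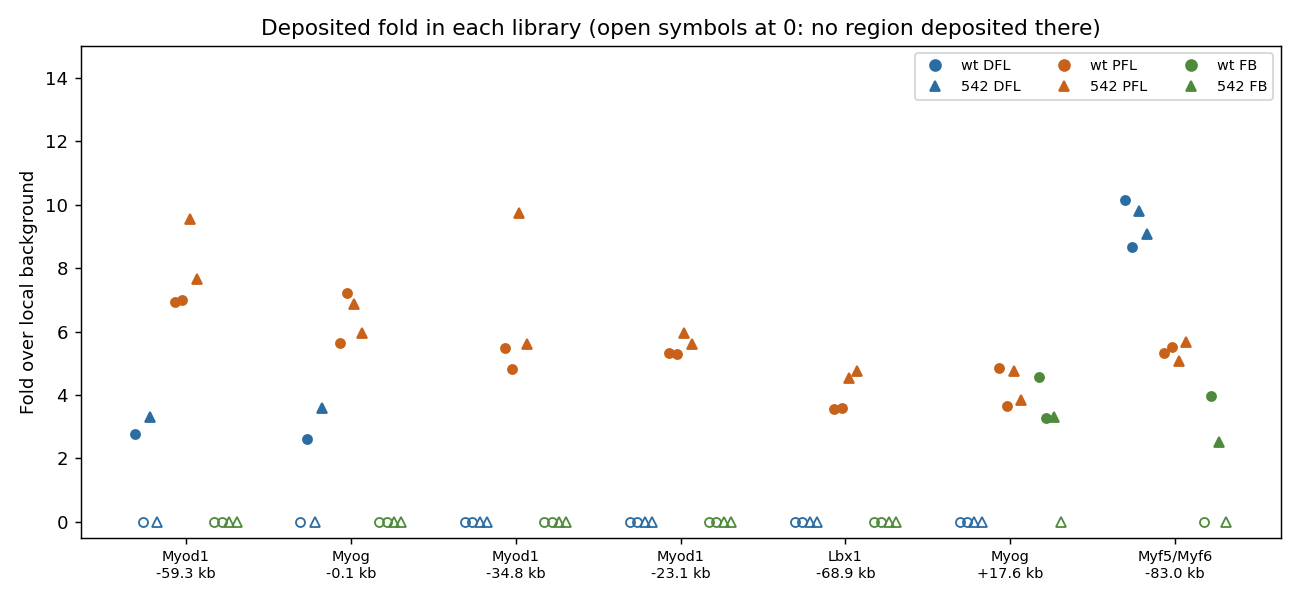
Fold over local background deposited for 7 regions in each of the 12 libraries, with the distance of each summit from the gene start; circles are wt, triangles are 542, and open symbols at 0 mark libraries with no deposited region. Every PFL fold lies above every DFL fold in the first 6 regions, and the order is reversed in the Myf5/Myf6 region at -83013 bp.

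Myog encodes the factor that drives differentiation of committed muscle cells. The region at its start (chr1:134289531-134290634, summit at -143 bp) had folds of 5.64 and 7.23 in wt PFL and 6.88 and 5.94 in 542 PFL. Of the DFL libraries, wt replicate 2 had a fold of 2.60 and 542 replicate 2 a fold of 3.59, and the others had no region. No FB library had one.

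The promoter score of Myog, the score of a region with its summit within 1 kb of the start, was accordingly 66.5 ± 7.96 in PFL, 2.3 ± 4.59 in DFL and 0 in FB (SD, n = 4 each). The PFL and DFL scores did not overlap (exact permutation p = 0.0286, adjusted p = 0.383 over 13852 genes). Scores of 4 against 4 libraries that do not overlap always give this p, the smallest the test allows. Higher promoter scores in every PFL library were found for 4.4% of all genes tested, and lower ones for 3.05%. A further PFL region at 17565 bp, in an intron of the neighbouring gene Ppfia4, had folds of 3.67 to 4.85 in PFL, no region in DFL and folds of 3.26 to 4.55 in 3 FB libraries. Of the 2 regions that scored higher in every DFL than in every PFL library, 1 lay in the Myog window. It was at -78583 bp in an intron of Adora1, with mean scores of 23.7 in DFL and 3.47 in PFL. Its exact permutation p = 0.0286 (adjusted p = 0.266) follows from its choice as a region without overlap. The region at 2741 bp scored 35.1 in DFL and 4.85 in PFL, with overlap (exact permutation p = 0.0571).

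Myf5 and Myf6 lie next to each other on chromosome 10 and share most of their windows. Scores that did not overlap were found in both directions there, with 3 regions higher in PFL and 1 lower. The region at 29280 bp from the Myf5 start had mean scores of 61.6 in PFL and 9.30 in DFL. That at 48900 bp had 49.3 in PFL, 3.99 in DFL and 26.2 in FB. The region at -57101 bp from the Myf5 start, in an intron of Ptprq (chr10:107542346-107543563, named after its values were seen), had folds of 6.09 and 7.35 in wt PFL and 6.92 and 11.2 in 542 PFL, against 4.20 to 4.94 in DFL. The region at -83013 bp, also in an intron of Ptprq (chr10:107568573-107569853), went the other way, with folds of 8.67 to 10.2 in DFL and 5.06 to 5.68 in PFL.

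The Myf5 start itself was weak and variable. The region with its summit at 987 bp, in an intron of Myf5, was among the 80000 strongest in 2 DFL and all 4 PFL libraries and in no FB library, and its highest fold was 6.02, in wt DFL replicate 2. The region at the Myf6 start had its summit 1081 bp into the gene and so fell outside the promoter distance of 1 kb. It was found in all 12 libraries, with mean scores of 52.1 in DFL, 45.5 in PFL and 69.2 in FB.

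Of the genes of migrating progenitors, Lbx1 had the PFL region at -68868 bp, with folds of 3.55 and 3.58 in wt PFL and 4.54 and 4.74 in 542 PFL and no region in DFL or FB. The earlier wt DFL library held a region there with a fold of 2.63. Near the Lbx1 start, the region with its summit at -1046 bp had a mean score of 35.8 in PFL, 4.01 in DFL and 2.87 in FB.

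Pax3 had PFL-higher regions at 67636 bp, in one of its introns, and at 187959 bp, beyond its end. The intronic region had folds of 8.51 to 9.95 in PFL and 3.15 to 5.90 in DFL, and no region in FB, and the earlier wt DFL library had a fold of 3.64 there. The region at 187959 bp had folds of 7.02 and 8.03 in wt PFL, 4.95 and 5.19 in 542 PFL and 2.64 to 4.03 in 3 DFL libraries. The earlier wt DFL library, however, had a fold of 10.8 there, above every PFL fold, and with it added the rank scores of the groups overlapped (exact permutation p = 0.0556 in place of 0.0286). For Pax7, an intronic region at 62270 bp had folds of 4.67 to 8.51 in PFL, was among the 80000 strongest in 1 DFL library, and was in no FB library at that depth. No region among the 80000 strongest lay within 1 kb of the Pax7 start in any library.

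The number of regions in the window of a gene was then compared between the tissues. Myod1 had 4, 4, 6 and 4 regions in the DFL libraries and 7, 9, 12 and 9 in the PFL libraries, in the order wt 1, wt 2, 542 1 and 542 2. Lbx1 had 6, 6, 8 and 3 in DFL and 10, 9, 10 and 9 in PFL. These were the 2 of 7 genes with counts higher in every PFL library than in every DFL library, a pattern found in 4.2% of 19516 genes, and 0 of 7 showed the opposite, found in 3.44%. Both had p = 0.0286 and an adjusted p = 0.374 by the exact permutation test. This p is the smallest the test allows and follows from the lack of overlap. The Lbx1 difference no longer separated with the 50000 strongest regions (p = 0.143, exact permutation test) or with all deposited regions (p = 0.257), and the Myod1 difference gave p = 0.114 with the 200 kb window and p = 0.0571 when ranked by fold.

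**Figure D4:**
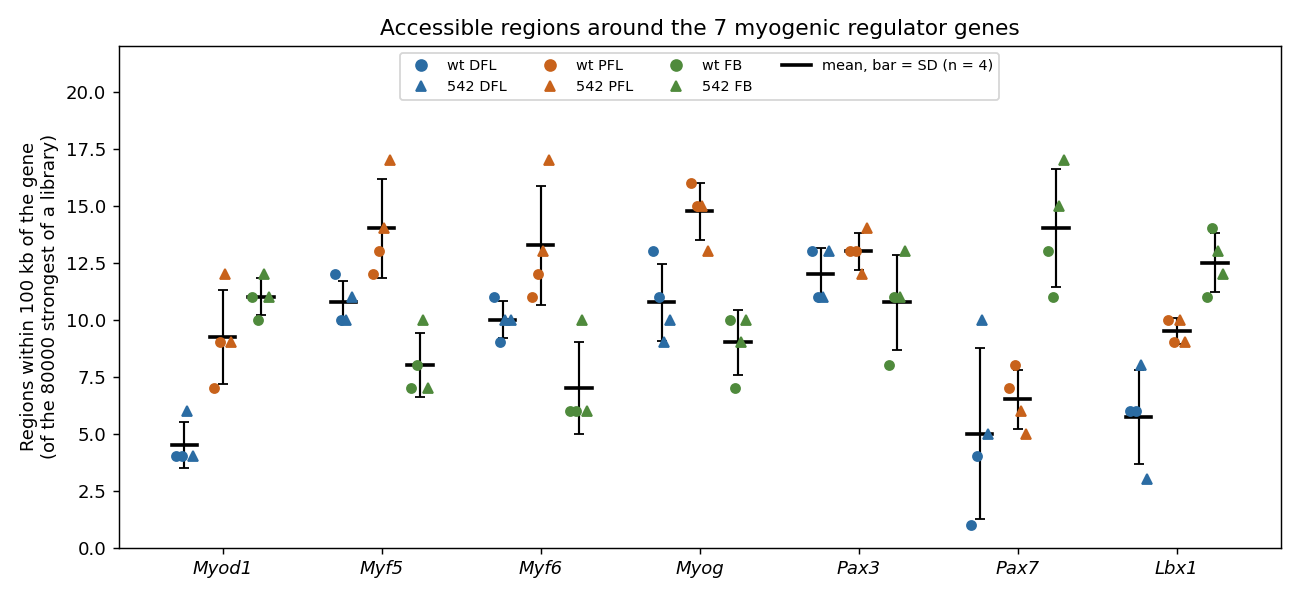
Number of regions, among the 80000 strongest of a library, within 100 kb of each gene; points are libraries (circles wt, triangles 542), thick lines are means and bars are SD over 4 libraries of a tissue. Myod1 and Lbx1 counts are higher in every PFL than in every DFL library, and Pax7 counts are highest in FB.

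Limb and forebrain differed more often. Of 160 regions, 5 (3.12%) were found in all 8 limb libraries and in no FB library, beside 4.41% of all consensus regions, and 11 (6.88%) in all 4 FB libraries and in no limb library, beside 7.74%. By the exact permutation test with adjustment over all regions, 7 regions (4.38%) scored higher in limb and 26 (16.2%) lower, beside 7.86% and 13.1% of all consensus regions. Both limb shares were thus below the background, while the FB shares were slightly below it for regions found in FB alone and slightly above it for scores.

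The limb regions belonged to Pax3, Myf5, Myf6 and Myog. The Pax3 region at -34965 bp (chr1:78231613-78232503, intergenic) had folds of 8.12 and 13.4 in wt DFL, 7.56 and 5.29 in 542 DFL, 10.3 and 9.40 in wt PFL and 9.61 and 7.19 in 542 PFL. FB libraries had none there, and limb and FB did not overlap (exact permutation p = 0.00202, adjusted p = 0.0117), as its choice as a region found in limb and not in FB fixes. The other Pax3 region, at 38968 bp in an intron, had folds of 5.33 to 7.74 in DFL and 6.39 to 9.68 in PFL.

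The other limb regions were at -28798 bp and -57101 bp from the Myf5 start and in an intron of Mybph, a muscle protein gene, at -93939 bp from the Myog start. The Myf5/Myf6 region at -28798 bp had folds of 6.23 to 8.45 in DFL and 4.52 to 8.89 in PFL. A weak region was deposited there in 542 FB replicate 1, with a fold of 2.79.

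The FB regions comprised 4 in the window of Pax3, 4 in that of Pax7, 2 in that of Myod1 and 1 in that of Lbx1. The sequence on the summit of the strongest FB region of Pax3, in an intron, is given here because it stood open in forebrain and in no limb library. These 200 bases hold no E-box, and the 300 bases around the same summit hold 1 CANNTG.
Pax3 at 29049 bp, chr1:78167985-78168184: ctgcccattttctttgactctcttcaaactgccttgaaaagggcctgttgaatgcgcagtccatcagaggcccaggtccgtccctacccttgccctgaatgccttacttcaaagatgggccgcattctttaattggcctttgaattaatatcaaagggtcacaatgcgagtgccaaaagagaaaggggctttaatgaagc
The Pax3 region at 29049 bp had folds of 9.05 and 9.16 in wt FB and 9.21 and 8.94 in 542 FB, with 101 to 147 tags. None of the limb libraries had a region there.

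In the window of Myod1, the 2 FB regions lay at 46093 and 57542 bp, downstream of the gene, both in introns of Kcnc1, a potassium channel gene. Upstream, on the side of the PFL regions, the region at -96337 bp, in an intron of Otog, was found in all 4 FB libraries and in 1 PFL library, with a mean score of 32.3 in FB (adjusted p = 0.0216, exact permutation test, lower in limb). The Lbx1 region at -76372 bp had folds of 5.10 to 8.00 in FB and none in limb.

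Window counts were compared between limb and FB. Pax7 had 13, 11, 15 and 17 regions in the FB libraries (wt 1, wt 2, 542 1, 542 2) and 1 to 10 in the limb libraries (exact permutation p = 0.00202, adjusted p = 0.0138). Lbx1 had 11 to 14 regions in FB and 3 to 10 in limb (adjusted p = 0.0350, exact permutation test). The direction of the Lbx1 count turned with the 50 kb window, where limb exceeded FB by 0.125 regions (p = 1.0, exact permutation test).

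Myf5 and Myf6, whose windows overlap, had more regions in limb. Myf5 had a mean of 10.8 regions in DFL, 14 in PFL and 8.0 in FB (adjusted p = 0.0412, exact permutation test), and Myf6 10.0, 13.2 and 7.0 (adjusted p = 0.0458). These p-values count assignments with an absolute difference at least as large as the observed one. With the smaller tail doubled, the other usual form of a two-sided test with unequal groups, the adjusted p was 0.0491 for Myf5 and 0.0595 for Myf6, so that the Myf6 call was lost. At an adjusted p under 0.05, 12.1% of all genes had more regions in limb and 14.4% fewer, against 2 and 2 of the 7 genes. Groups that did not overlap were found for 8.15% and 8.69% of all genes, against 0 and 2 of the 7, Pax7 and Lbx1.

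The allele 542 and wild type were compared within tissues. Around the 7 genes, 0 regions were found in every wt library and in no 542 library, beside 0.00816% of all consensus regions, and 0 the other way, beside 0.0109%. By the exact permutation test within tissues, 6 of 160 regions (3.75%) had an unadjusted p under 0.05, beside 2.75% of all consensus regions, and 0 passed the adjustment, with a lowest adjusted p over all regions of 0.986. limma also called 0, beside 0.00816% of all consensus regions higher and 0.0114% lower in 542.

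A single region had scores that did not overlap between the genotypes. At 8948 bp from the Myog start, in an intron of Ppfia4, folds in DFL were 6.01 and 5.08 for wt and 3.32 and 3.59 for 542. In PFL they were 4.37 and 5.49 for wt and 4.24 and 3.0 for 542, and in FB 5.90 and 4.82 for wt and 4.25 and 4.46 for 542. The scores were lower in all 6 mutant libraries (difference -26.9, exact permutation p = 0.00926, adjusted p = 0.986). Genotypes that do not overlap within any tissue always give this p, the smallest the test allows. Scores lower in every mutant library were found in 0.0723% of all consensus regions, while 0.0691% had the opposite pattern. The Myod1 region at -36434 bp had the same p in the other direction, with scores that were higher in 542 within each tissue but overlapped across tissues (difference 26.6, exact permutation p = 0.00926, adjusted p = 0.986). The Pax3 promoter score averaged 4.45 in wt and 21.9 in 542 libraries, with overlap (exact permutation p = 0.0278, adjusted p = 0.314), and gave p = 1.0 with the 50000 strongest regions.

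Other genes of muscle development were read from lists of 61 genes, of which 58 were used. More regions in every PFL than in every DFL library were found for 8 of 58 genes (13.8%) and fewer for 2 (3.45%), and promoter scores were higher for 5 of 47 genes (10.6%) and lower for 2 (4.26%). The 4.2% and 4.4% given above are the shares over all genes for the higher direction. None of these genes passed the adjustment (lowest adjusted p = 0.374 for counts and 0.383 for promoters, exact permutation test).

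Among the inhibitors and partners of the basic helix-loop-helix factors, Msc, a repressor expressed in muscle precursors, had 6 to 9 regions in DFL, 10 to 14 in PFL and 3 to 4 in FB. Among differentiation genes, the promoter of Des, which encodes the muscle intermediate filament desmin, scored 3.44 to 42.3 in DFL and 51.9 to 60.4 in PFL. Cdh15, a cadherin of muscle cells, scored 56.1 to 65.7 in DFL and 68.7 to 82.8 in PFL. Ckm, the muscle creatine kinase gene, went the other way, with 66.2 to 80.4 in DFL and 38.9 to 65.8 in PFL.

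Between limb and forebrain, 9 of 58 genes (15.5%) had more regions in every limb library and 5 (8.62%) fewer, beside 8.15% and 8.69% of all genes, and 6 of 47 promoters (12.8%) scored higher and 1 (2.13%) lower, beside 9.77% and 8.68% of all promoters. The promoter of Meox1, a homeobox gene of the somites, scored 33.7 to 74.7 in limb and 0 in FB. It passed the adjustment (adjusted p = 0.0144, exact permutation test).

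Markers of other cells were read in the same way between PFL and DFL. Hoxa13 and Hoxd13, the 2 distal limb genes, had lower promoter scores in every PFL library, and of 3 cartilage promoters Acan, a cartilage matrix gene, was higher, with 21.0 in DFL and 56.8 in PFL. None of the 3 proximal limb, 3 endothelial, 4 ectodermal, 3 blood or 3 Schwann cell and neural crest genes had promoter scores that did not overlap, and the promoters of Sox10, Gata1 and Cdh5 were at 0 in PFL and DFL. Only 2 endothelial, 3 ectodermal, 1 blood and 1 Schwann cell and neural crest promoter had a score above 0 in any library. The other promoters of these 4 sets could not show a difference. The part of cartilage or of other cells in the PFL regions was not tested.

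E-boxes were counted in 300 bases centred on the strongest summit, on both strands. The form CAGCTG was present in 5 of the 5 PFL regions, beside 40.6% of all 3474 regions found in PFL and not in DFL, 24.9% of all consensus regions and 30.6% of the 160 regions. It was present in 3 of the 5 limb regions and in 0 of the 11 FB regions, beside 25.0% of all FB regions of that kind. The general form CANNTG, of which the other forms are special cases, was in 83.3% of all consensus regions and 86.2% of the 160.

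The other motifs were rarer. CAGGTG was in 2 of the 5 PFL regions and 18.9% of all consensus regions, CATATG in 0 and 7.48%, the MEF2 core in 0 and 4.54%, and the homeodomain core TAATTA in 0 and 14.4%. TAATTA was in 3 of the 11 FB regions, beside 32.7% of all FB regions of that kind. Of the promoters of the 7 genes, 3 were in the RefSeq table, and among these Myog held 2 CANNTG in 300 bases, beside 72.3% of all promoters with at least 1, while Myf5 and Pax7 held 0. With few regions in each set these shares are descriptions of the sequences.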

How the data were processed

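Pooled embryonic tissue was profiled by ATAC-seq. Adapters were trimmed with Cutadapt, reads were aligned with bowtie2 to mm10 (wt) or to a genome carrying the insertion (542), filtered for mapping quality, discordant pairs, mitochondrial reads and duplicates, and peaks were called by the authors per library with MACS2 without control. The deposited fold is a ratio of tags to local background within a library, deposited beside −log10 p-values and −log10 q-values, a whole-number score and a summit offset. No normalization between libraries enters these values.

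Regions with the same borders were taken as 1, with the strongest summit. Chromosome 2 from 75 Mb was left out. Tags were recovered from fold and p-value (tolerance 0.001), and depth was estimated from the commonest background. The 80000 strongest regions per library (by −log10 q, then fold) were merged by an overlap of at least 1 bp. Differences in means were tested with two-sided exact permutation tests on absolute differences, within tissues for genotype, and adjusted by Benjamini-Hochberg over all regions or protein-coding genes; for 8 against 4 libraries this form differs from doubling the smaller tail, which was run as an alternative. Tests were checked on simulated data. Named regions were those within 1 kb of a member start, the 3 strongest per window and up to 2 per direction and comparison whose groups did not overlap. The genes and lists were chosen with earlier results of these data known. Sequences came from RefSeq and GRCm38.p6, in which 0 consensus regions ended past a chromosome. Replicates are pools of embryos, and p-values measure the spread between these libraries. Python 3.11.15, numpy 2.4.6, pandas 2.3.3, scipy 1.17.1, R 4.3.3 and limma 3.58.1 were used. The values of 2 list genes and 1 sequence are not reported here.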

Additional observations from a re-analysis of the deposited data

Results flagged for a closer look

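In groups of 4 libraries of a tissue, 1 library stood apart from the other 3 in 7 of 97 values examined. The rule is set to flag about 1 in 20 values with a normal spread, and this rate was not checked for these data. Each group mixed both genotypes, and a count on which the other 3 libraries agree is always flagged. The window count of Myod1 in DFL was 6 in 542 replicate 1 and 4 in the others, and that of Myf6 in FB was 10 in 542 replicate 1 and 6 in the others. The fold of the Myf5 region at 96340 bp was 6.71 in 542 DFL replicate 2, and that of the Myf5/Myf6 region at 48900 bp was 2.92 in 542 FB replicate 2. The folds in the Myod1 window that stood apart were 9.73 at -34759 bp in 542 PFL replicate 1, 3.44 at 703 bp in 542 PFL replicate 2 and 9.01 at 20331 bp in wt FB replicate 2.

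In 4 of the named regions the difference between PFL and DFL had opposite signs in wt and 542 in every library. The difference between the genotypes was not tested. With so few libraries per genotype and tissue, such an order can arise by chance in some of the regions looked at. The share of all consensus regions with this pattern was not computed, so the count is no result about the genotype. The rank score of PFL minus DFL was 7.54 in wt and -5.69 in 542 for the Myog region at -45612 bp, and -24.5 and 21.7 for the Myf5 region at 987 bp. It was 23.0 and -5.91 for the Pax7 region at 11868 bp, and -10.7 and 27.5 for the Pax7 region at -43957 bp. The Pax7 region at -25323 bp, which the naming rule did not take, showed the same pattern as the Pax7 region at 11868 bp.

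The earlier wt DFL library, left out of the comparisons, held 110 regions around the 7 genes, of which 30 overlapped no region of the 2 wt DFL libraries and 12 no region of the 12 libraries. Its estimated depth was 78.0 M tags. The matching shares over all of its regions were not computed, so these counts are no result about the 7 genes.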

How the results depend on the processing

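The count of regions in PFL and not in DFL (5) was 11 with all deposited regions, 3 with a window of 50 kb and 9 with a window of 200 kb, and 5 to 15 when replicates were left out. That in DFL and not in PFL (0) was 3 with all deposited regions and 1 when ranked by fold, and 0 to 3 when replicates were left out. That in limb and not in FB (5) was 3 with the 50000 strongest regions and 5 to 8 when replicates were left out, and that in FB and not in limb (11) was 7 with a window of 50 kb and 11 to 21. The 2 counts between genotypes stayed at 0 in every alternative. The Lbx1 window count of limb against FB reversed to 0.125 with a window of 50 kb. Without any 1 DFL library, the Myod1 window count gave p = 0.0571 for PFL against DFL, and without any 1 PFL library the Lbx1 count gave the same p (exact permutation tests). In both cases the counts of the remaining libraries still did not overlap, as each count is taken within a library. The test then had fewer libraries to permute. The cause of the other changes was not tested. With a replicate number left out from every group, the smallest p was 0.333 for PFL against DFL, so no call could be kept.

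Replicate numbers did not pair the libraries, with correlations of deviations from -0.0199 to 0.00671. With the replicate block in limma, 16 regions were higher and 2 lower in PFL, against 16 and 3 without it. The shares over all consensus regions were 4.22% and 4.65% with the block, and 4.78% and 5.14% without it. With signs permuted within pairs (replicate block), the Myod1 window count and the Myog promoter each gave p = 0.125, the smallest 4 pairs allow by this exact test. With the smaller tail doubled, chosen after seeing the data, 7 regions were higher and 25 lower in limb, beside 7.52% and 13.4% of all consensus regions.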
